A study of Mus musculus with 6 samples.

Results

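The genes described here encode heat shock proteins, their co-chaperones, heat shock factors and the subunits of the CCT chaperonin. The members were 33 mouse genes chosen by symbol, and 31 of them had a probe set whose annotation names that gene alone, of 18193 genes measured in all. Hsp90ab1 and Hsf1 were not analysed here. Expression was measured on Affymetrix mouse genome arrays in marrow erythroblasts of 3 knockout mice (KO, numbered 493, 548 and 551 in the titles), null for miR-144 and miR-451, and 3 wild-type mice (WT, numbered 497, 504 and 550), by the study's design text. The numbers are read here as mouse numbers, with 1 array each, which the labels do not state. In both genotypes the cells were freshly isolated, selected as large cells carrying Ter119, an erythroid surface antigen, and CD71, the transferrin receptor, and sorted into Trizol LS. The labels name no treatment, and strain, age, sex, litter and the way the allele was made are not given in the sources used here. All values below are log2 probe-set intensities, and differences are KO minus WT on that scale.

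Molecular chaperones bind unfolded proteins and help them reach or regain their folded state. HSP70 proteins bind and release clients in an ATP cycle that J-domain proteins (the HSP40 or Dnaj family) start and nucleotide exchange factors such as HSP110 and BAG proteins reset, and clients can pass on to HSP90 through the adaptor Stip1. The CCT chaperonin is a double ring of distinct subunits that folds actin and tubulin, while HSP60 and HSP10 form the chaperonin of mitochondria. On heat or proteotoxic stress the transcription factor HSF1 binds heat shock elements, inverted repeats of GAA, and induces many of these genes. In maturing erythroblasts HSP70 is known to protect the transcription factor GATA1 from caspase cleavage.

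The sequences of the deleted microRNAs and of promoters on which the description turns come from RefSeq on build GRCm38.p6. The locus gives rise to miR-144-3p (chr11:78073047-78073066, plus strand) and miR-451a (chr11:78073186-78073207, plus strand). Both are shown 5′ to 3′ to identify what the knockout lacks, with the seed, bases 2 to 8, in capitals.
mmu-miR-144-3p: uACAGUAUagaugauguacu
mmu-miR-451a: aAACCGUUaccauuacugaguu

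Promoters are shown as the 250 bases before a start site. A heat shock element was searched as GAANNTTCNNGAA on both strands, and as its shorter overlapping form, GAANNTTC or TTCNNGAA, each of which is its own reverse complement. The longer form stood before 0.514% of 27025 genes, and 3 of the 27 members with a listed promoter held it: Hspd1, Hspe1 and Dnajb6. The shorter form stood before 14.5% of genes and before 11 of the 27 members. Hspd1 and Hspe1, the genes for HSP60 and HSP10, are divergent neighbours whose windows share 215 bases on opposite strands, and the Hspd1 window (chr1:55087933-55088182, minus strand) is shown because 1 run of overlapping elements lies in both. The windows of Hspa1a (chr17:34972157-34972406, minus strand) and Hspa1b (chr17:34959239-34959488, minus strand) are shown because these twin genes of inducible HSP70 differ there at 3 of 250 bases (98.8% identical). The windows of Hsph1 (chr5:149636337-149636586, minus strand), Hspa4 (chr11:53300480-53300729, minus strand) and Stip1 (chr19:7040027-7040276, minus strand) are shown because several of the differences described below concern these genes. Capitals mark every match to the shorter form, and the windows of Hspa4 and Stip1 hold none. Only exact matches within these 250 bases were searched, so elements with a mismatch or outside the window would be missed.
Hspd1: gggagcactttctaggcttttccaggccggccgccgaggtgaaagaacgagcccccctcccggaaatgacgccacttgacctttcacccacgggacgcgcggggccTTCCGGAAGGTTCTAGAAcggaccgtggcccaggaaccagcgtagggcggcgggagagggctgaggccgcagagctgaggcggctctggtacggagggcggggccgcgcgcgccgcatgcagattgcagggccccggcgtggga
Hspa1a: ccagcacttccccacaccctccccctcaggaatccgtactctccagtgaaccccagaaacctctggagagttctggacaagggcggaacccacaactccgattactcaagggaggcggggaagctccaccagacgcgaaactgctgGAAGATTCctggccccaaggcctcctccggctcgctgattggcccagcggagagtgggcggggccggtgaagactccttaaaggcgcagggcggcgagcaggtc
Hspa1b: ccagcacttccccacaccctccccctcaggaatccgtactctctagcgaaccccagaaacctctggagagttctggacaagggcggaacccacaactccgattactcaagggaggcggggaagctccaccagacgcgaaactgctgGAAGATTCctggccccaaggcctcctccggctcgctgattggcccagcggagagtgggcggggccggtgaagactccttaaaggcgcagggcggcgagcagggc
Hsph1: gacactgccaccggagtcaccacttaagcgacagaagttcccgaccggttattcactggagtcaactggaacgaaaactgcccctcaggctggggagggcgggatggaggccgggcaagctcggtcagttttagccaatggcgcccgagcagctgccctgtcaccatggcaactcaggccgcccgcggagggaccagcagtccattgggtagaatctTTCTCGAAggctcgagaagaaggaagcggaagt
Hspa4: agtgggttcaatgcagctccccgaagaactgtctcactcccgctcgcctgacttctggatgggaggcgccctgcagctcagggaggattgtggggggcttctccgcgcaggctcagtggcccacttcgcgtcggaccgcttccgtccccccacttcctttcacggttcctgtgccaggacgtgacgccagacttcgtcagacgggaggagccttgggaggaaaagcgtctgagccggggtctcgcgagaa
Stip1: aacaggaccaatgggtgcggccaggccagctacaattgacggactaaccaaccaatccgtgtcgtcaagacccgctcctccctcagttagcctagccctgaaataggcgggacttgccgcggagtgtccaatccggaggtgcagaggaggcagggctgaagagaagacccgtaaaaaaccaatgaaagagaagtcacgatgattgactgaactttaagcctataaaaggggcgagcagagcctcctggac

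The arrays were similar in quality but not identical between genotypes. Array medians were 5.62 to 5.68 in KO and 5.73 to 5.78 in WT, and an array correlated on average at 0.988 to 0.990 with its own group in KO and at 0.986 to 0.988 in WT. The signal of the 3′ minus the 5′ actin control was 1.82 to 1.86 in KO and 1.65 to 1.67 in WT, while that of the Gapdh controls was at most 1.05 in KO and 1.09 in WT. The actin values thus separated the genotypes and the Gapdh values overlapped. The part of this in the differences between genotypes or between probe sets was not tested. Defining erythroid genes were bright in all arrays: Slc4a1, the band 3 anion exchanger, averaged 13.04 ± 0.03 in KO and 13.11 ± 0.01 in WT, and Tfrc, which encodes CD71, 12.94 ± 0.01 in KO and 12.98 ± 0.02 in WT (SD, n = 3 each). Levels of miR-144 and miR-451 were not analysed here, and the genotypes are taken from the labels.

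No heat shock or chaperonin gene was called between genotypes by its brightest probe set. In such bulk samples fewer cells of a type and less RNA per cell cannot be told apart. Limma called 0 of 31 members at an adjusted p under 0.05, against 0.385% of all genes (0.236% higher and 0.148% lower in KO), and an equal-variance test without moderation also called 0. An unadjusted p under 0.05 was reached by 4 members higher in KO (Stip1, Cct3, Cct6a and Hspa4), against 8.34% of all genes, and by 1 member lower in KO (Hspa4l), against 12.7%. A second limma fit, whose robust prior follows a trend in intensity (the trend fit), called 2 members higher (Stip1 and Cct7), against 2.37% of genes, and 1 lower (Hspa4l), against 2.04%. The median difference was 0.06 over the members and -0.04 over all genes, and 21 members lay above 0 and 10 below. Centring each array on its median put the median of all genes at 0.07 and that of the members at 0.17, with 26 above 0 and 5 below. In 8 members every KO value lay above every WT value, which held for 12.5% of all genes and for 19.1% of the 1841 genes with a mean of at least 11. The reverse held for 2 members, Hspa4l and Bag1, for 16.2% of all genes and for 20.1% of the bright ones.

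**Figure D1:**
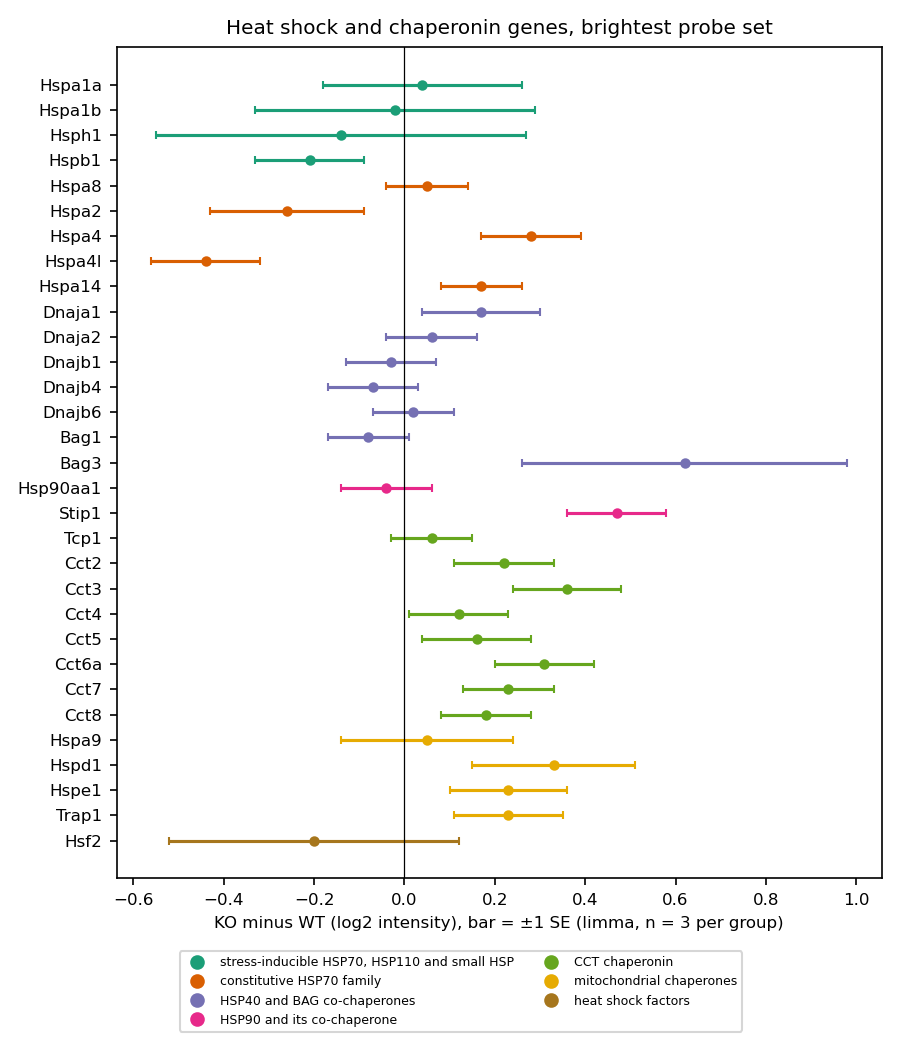
Difference between KO and WT (log2 intensity, KO minus WT, horizontal axis) for the brightest probe set of each of 31 genes, listed down the page and coloured by role; points are limma estimates and bars are 1 moderated standard error with 3 arrays per group. The 8 CCT subunits lie between 0.06 and 0.36, Stip1 lies at 0.47, Hspa4l at -0.44 and Bag3, with a wide bar, at 0.62.

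Most members have several probe sets, and these gave 86 measurements in all. Limma called 1 of the 86 higher in KO (0.184% of all probe sets were) and 0 lower (0.171%). It gave an unadjusted p under 0.05 to 13 higher and 9 lower, against 7.61% and 12.2% of all probe sets. In the trend fit 7 were called higher and 2 lower, against 1.71% and 1.83% of all probe sets. Probe sets of 1 gene share its RNA and are not replicates. Among genes with many probe sets, Hspa4l had 5 of 5 below 0 and Cct3 had 7 of 7 above 0. Probe sets lay farthest apart for Hsph1, whose 2 probe sets stood at -0.14 and 0.87, and Hspa9, with a range of -0.70 to 0.19. The -0.70 came from a Hspa9 probe set too dim to compare, averaging 2.62 in KO and 3.32 in WT. The brightest and next brightest of Hspa9 stood at 0.05 and 0.19.

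**Figure D2:**
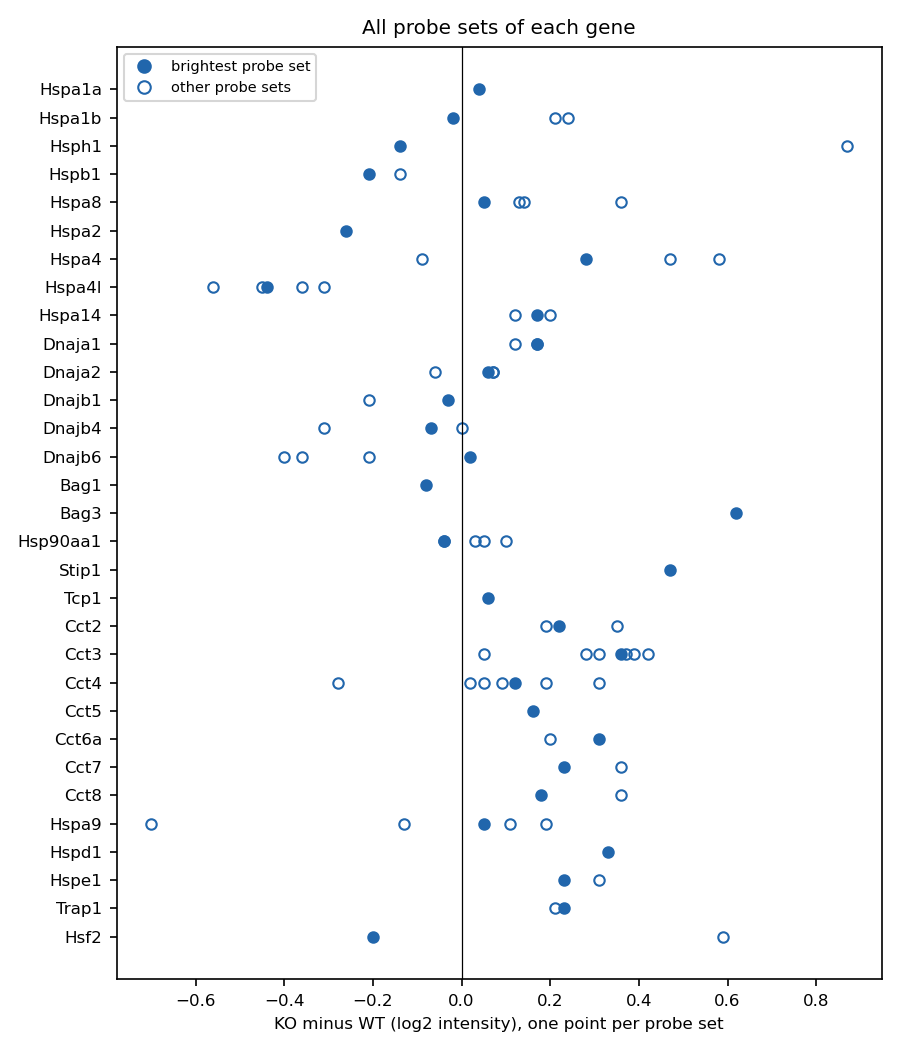
Difference between KO and WT (log2 intensity, KO minus WT, horizontal axis) for each of the 86 probe sets of the 31 genes; filled points are the brightest probe set of a gene and open points the others. All 5 probe sets of Hspa4l lie below 0, all 7 of Cct3 lie above it, and the open point of Hsph1 at 0.87 lies far from its filled point at -0.14.

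Hspa4, Hspa4l and Hsph1 make up the HSP110 family, distant relatives of HSP70 that act as its nucleotide exchange factors, and none was called by its brightest probe set. For Hspa4 the brightest probe set read 11.58, 11.77 and 11.73 in KO 493, 548 and 551, against 11.32, 11.50 and 11.41 in WT 497, 504 and 550. The genotypes did not overlap, and the difference was 0.28 ± 0.11 (SE, limma adjusted p = 0.222). The next probe set read 10.56, 10.59 and 10.51 in KO and 10.04, 10.03 and 10.17 in WT, a difference of 0.47 ± 0.10 (limma adjusted p = 0.0951). The one after it read 9.79, 9.83 and 9.85 in KO and 9.21, 9.13 and 9.40 in WT, a difference of 0.58 ± 0.11 (limma adjusted p = 0.0834). Thus 3 probe sets separated the genotypes in the same direction, and the limma trend fit called the 2 dimmer ones (adjusted p = 0.0158 and 0.0215). The remaining, dim probe set read 5.82 to 6.07 in KO and 5.90 to 6.14 in WT and did not separate them. Hspa4 lies on chromosome 11, as do Cct4 and the deleted locus; 1.58% of the 1452 measured genes there were called, against 0.281% of genes elsewhere, and the part of that position in the difference of Hspa4 was not tested.

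Hspa4l, the relative of Hspa4 that is abundant in testis, had the opposite sign. Its brightest probe set read 9.92, 10.05 and 10.08 in KO, against 10.51, 10.28 and 10.58 in WT. All KO arrays were below all WT arrays, with a difference of -0.44 ± 0.12 (95% interval -0.73 to -0.15, limma adjusted p = 0.139). The limma trend fit called it (adjusted p = 0.0453). The other 4 probe sets differed by -0.56 to -0.31, and each of them also separated the genotypes without overlap.

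Hsph1, which encodes the heat-inducible HSP105, gave different readings from its 2 probe sets. The dimmer one read 10.06, 10.02 and 10.04 in KO, against 9.21, 9.21 and 9.08 in WT. KO was higher by 0.87 ± 0.10 (95% interval 0.64 to 1.10, fold 1.83, limma adjusted p = 0.0301), higher in 3 of 3 KO arrays than in any WT array, and this was the only called probe set of any member. The brighter one read 12.43, 12.42 and 12.38 in KO, against 12.06, 11.99 and 13.60 in WT. There the genotypes overlapped because WT 550 stood well above the other 5 arrays, and the difference was -0.14 ± 0.41 (limma adjusted p = 0.882). Without WT 550 it was 0.38 ± 0.11 (limma adjusted p = 0.218). WT 550 did not stand apart in the dimmer probe set, and the probe sets give no single size for this gene. The call of the dimmer probe set rested on all 6 arrays: leaving out any 1 of them kept the difference at 0.83 to 0.89 but gave limma adjusted p = 0.0902 to 0.13.

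**Figure D3:**
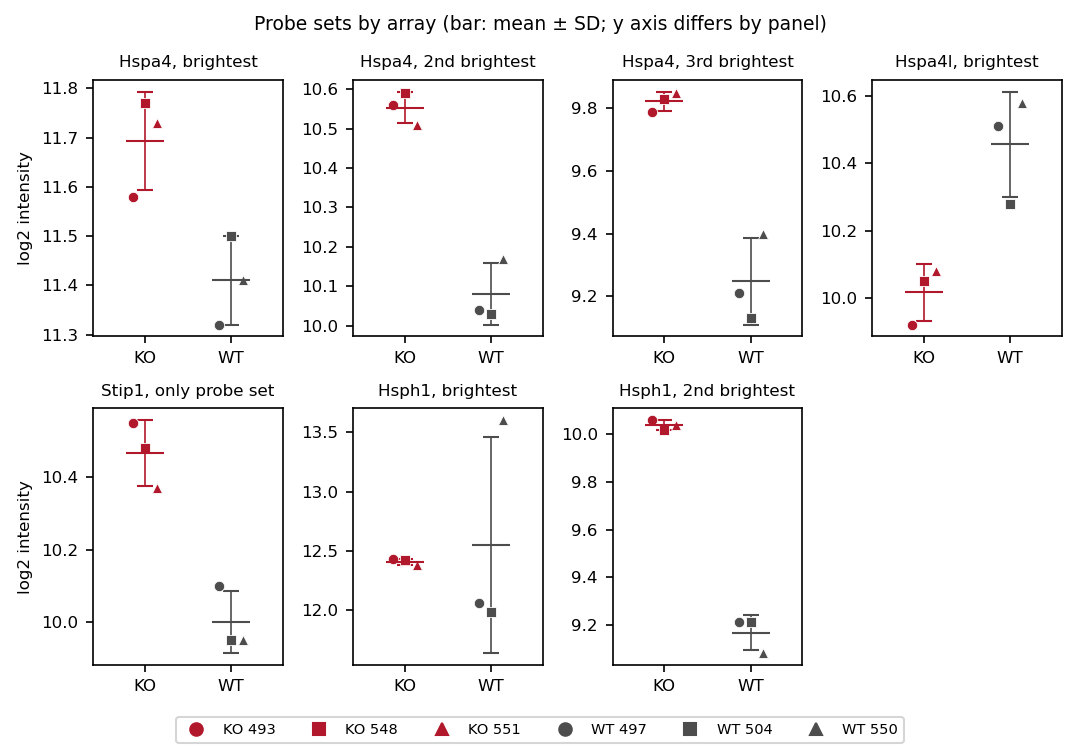
Log2 intensity on each array (points; KO left in red, WT right in grey, one symbol per array) for 3 probe sets of Hspa4, the brightest of Hspa4l, the only one of Stip1 and both of Hsph1; bars are the mean ± SD of 3 arrays and the vertical axis differs between panels. KO lies above WT without overlap for Hspa4, Stip1 and the second probe set of Hsph1 and below it for Hspa4l, while WT 550 at 13.60 makes the groups overlap in the brightest Hsph1 probe set.

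The remaining constitutive HSP70 genes differed less. Hspa8, the constitutive HSC70 that also uncoats clathrin vesicles, read 12.77, 12.72 and 12.68 in KO and 12.70, 12.69 and 12.63 in WT. These overlap, and the difference was 0.05 ± 0.09 (95% interval -0.17 to 0.27), with its other probe sets at 0.13 to 0.36. Hspa14, a ribosome-associated HSP70, read 11.07, 11.14 and 11.17 in KO and 10.95, 10.95 and 10.98 in WT. It separated the genotypes by a small 0.17 ± 0.09 (limma adjusted p = 0.371). Hspa2, an HSP70 best known from germ cells, read 8.94, 9.02 and 8.91 in KO and 9.53, 8.90 and 9.22 in WT. The spread among WT arrays covered the KO values, and the difference was -0.26 ± 0.17 (limma adjusted p = 0.433).

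For Hspa1b, Hspa1a and Bag3, which heat stress can induce, the KO arrays spread widely and the genotypes overlapped. Their SDs were 0.59, 0.39 and 0.76 in KO, against 0.31, 0.23 and 0.17 in WT. Hspa1b, inducible HSP70, read 8.13, 9.09 and 8.01 in KO and 8.50, 8.70 and 8.09 in WT. Its twin Hspa1a read 5.41, 6.18 and 5.86 in KO and 5.51, 5.94 and 5.87 in WT. KO 548 was the highest array in both, the genotypes overlapped, and the differences were -0.02 ± 0.31 for Hspa1b and 0.04 ± 0.22 for Hspa1a (95% intervals -0.75 to 0.71 and -0.48 to 0.56). The sign for Hspa1b turned when arrays were centred on their median (0.09). Its dimmer probe sets stood at 0.24 and 0.21, also with overlap. Hspa1a averaged 5.82 in KO and 5.77 in WT, near the array medians. As near-identical copies that probes may not tell apart, Hspa1a and Hspa1b are uncertain as separate measurements. Bag3, a co-chaperone that couples HSP70 to selective autophagy, read 7.18, 8.12 and 6.62 in KO and 6.50, 6.84 and 6.71 in WT. Its difference of 0.62 ± 0.36 was the largest among the brightest probe sets but was not called (limma adjusted p = 0.376), and it was 0.22 without KO 548. KO 551 lay below 2 of the 3 WT arrays for Bag3, so the high mean rests on KO 548 and, less so, on KO 493.

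Dnajb1, the HSP40 partner of inducible HSP70, read 12.07, 12.20 and 12.06 in KO and 12.13, 12.17 and 12.12 in WT, a difference of -0.03 ± 0.10 that centring turned to 0.08. KO 548 was again the highest array, by a small margin. Hspb1, the small heat shock protein HSP27, was dim, at 4.50 ± 0.13 in KO and 4.72 ± 0.13 in WT (SD), a difference of -0.21 ± 0.12 (limma adjusted p = 0.378). Hsf2, a heat shock factor with developmental roles, read 3.96, 4.04 and 2.85 in KO and 3.93, 3.57 and 3.95 in WT, below the 25th percentile of the arrays (4.30 to 4.40), so it was too dim to compare.

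**Figure D4:**
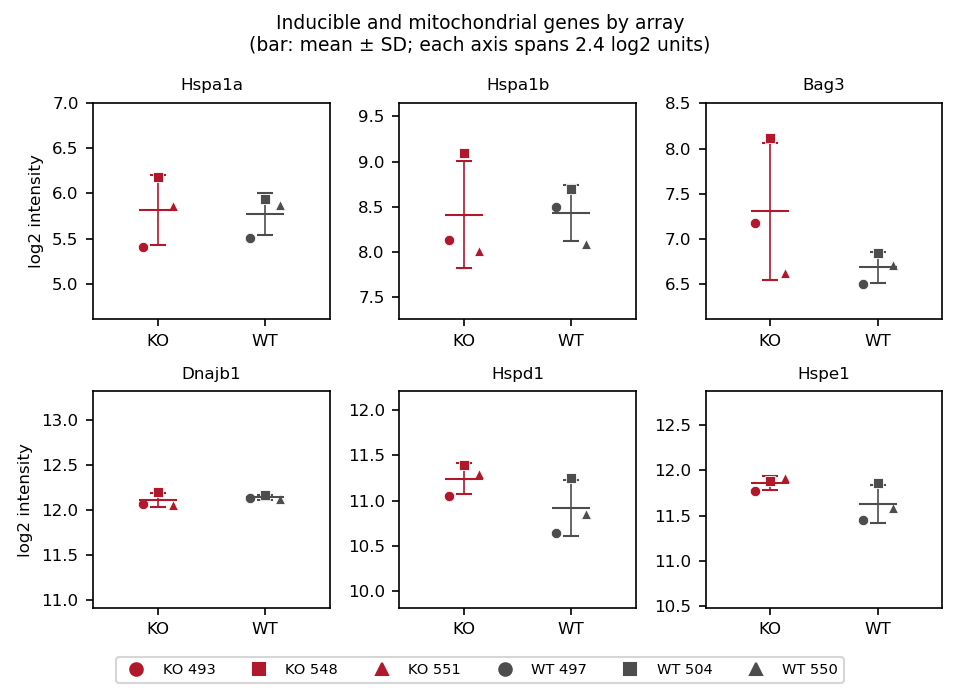
Log2 intensity on each array (points; KO left in red, WT right in grey, one symbol per array) for 4 stress-inducible genes and the mitochondrial pair Hspd1 and Hspe1; bars are the mean ± SD of 3 arrays and each vertical axis spans 2.4 log2 units. KO 548 (red square) is the highest array for Hspa1a, Hspa1b, Bag3, Dnajb1 and Hspd1, and the genotypes overlap in all 6 panels.

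Among the other co-chaperones the brightest probe sets were close in both genotypes. Dnaja1, a J-domain partner of HSC70, averaged 11.30 ± 0.09 in KO and 11.12 ± 0.18 in WT, and Dnaja2, its close relative, 11.32 ± 0.11 in KO and 11.25 ± 0.05 in WT (SD, n = 3 each). Their differences were 0.17 ± 0.13 and 0.06 ± 0.10 (SE), with overlap. Bag1, a nucleotide exchange factor that links HSP70 to the proteasome, read 12.01, 12.05 and 12.07 in KO and 12.13, 12.15 and 12.08 in WT. KO lay just below WT without overlap, and the difference was -0.08 ± 0.09 (limma adjusted p = 0.691), or 0.03 with arrays centred on their median. Dnajb4, a J-domain protein related to Dnajb1, differed by -0.07 ± 0.10 in its brightest probe set (0.04 after centring) and by -0.31 ± 0.10 in the next, which did separate the genotypes (limma adjusted p = 0.183).

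Dnajb6, a J-domain protein that suppresses protein aggregation, read differently on its probe sets. The brightest read 11.96, 11.96 and 11.99 in KO and 11.97, 11.98 and 11.90 in WT, a difference of 0.02 ± 0.09. The second read 10.95, 10.93 and 10.90 in KO and 11.38, 11.26 and 11.33 in WT. All KO values there were below all WT values by 0.40 on average (difference -0.40 ± 0.10, limma adjusted p = 0.118), and the limma trend fit called it (adjusted p = 0.0118). The other probe sets stood at -0.21 and -0.36, so 3 of 4 pointed lower in KO while the brightest did not.

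Around HSP90 the larger difference lay in the adaptor. Stip1, also known as HOP, which carries clients between HSP70 and HSP90, read 10.55, 10.48 and 10.37 in KO and 10.10, 9.95 and 9.95 in WT. The lowest KO array exceeded the highest WT array, and the difference was 0.47 ± 0.11 (95% interval 0.21 to 0.72, fold 1.38, limma adjusted p = 0.108). It was called by the limma trend fit (adjusted p = 0.0237) and after a filter on dim probe sets (adjusted p = 0.046, against 4.4% of genes past that filter), and it stood at 0.43 to 0.52 whichever array was left out. Hsp90aa1, the inducible HSP90 isoform, read 12.17, 12.21 and 12.13 in KO and 12.17, 12.34 and 12.13 in WT. These overlap, with a difference of -0.04 ± 0.10 (95% interval -0.29 to 0.21; 0.07 after centring) and with its 4 other probe sets at -0.04 to 0.10.

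All 8 subunits of the CCT chaperonin lay above 0, by small amounts, and none was called by limma. Unadjusted p was under 0.05 for 2 of them (Cct3 and Cct6a; 8.34% of all genes were so and higher), the trend fit called 1 (Cct7; 2.37%) and the equal-variance test 0. Their median difference was 0.20, against 0.00 over all genes with a mean of at least 11 and -0.04 over all genes, and 5 of the 8 lay wholly above WT, as did 12.5% of all genes and 19.1% of the bright ones. The mean over the 8 subunits was 12.03, 12.18 and 12.15 in KO 493, 548 and 551, against 11.84, 12.01 and 11.89 in WT 497, 504 and 550. KO 493 and WT 504 thus differed by far less than the genotypes' means did. The mean over all genes at or above 11 was 11.69 to 11.70 in KO and 11.68 to 11.70 in WT.

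Cct3, the gamma subunit, had the largest difference of the complex. It read 11.58, 11.76 and 11.68 in KO and 11.15, 11.48 and 11.30 in WT, without overlap (0.36 ± 0.12, 95% interval 0.07 to 0.66, limma adjusted p = 0.188). Of its 7 probe sets 4 separated the genotypes and all stood above 0, at 0.05 to 0.42. Cct6a, the zeta subunit, read 11.63, 11.79 and 11.78 in KO and 11.33, 11.57 and 11.37 in WT (0.31 ± 0.11, limma adjusted p = 0.21). Its other probe set was nearly as bright, at 11.68 in KO and 11.48 in WT, but overlapped between genotypes (0.20 ± 0.11). Cct7, the eta subunit, read 12.55, 12.71 and 12.67 in KO and 12.37, 12.47 and 12.40 in WT. Its difference of 0.23 ± 0.10 had a limma adjusted p = 0.266, and an adjusted p = 0.0439 in the trend fit, with 0.36 ± 0.11 in its other probe set. Cct2, the beta subunit, and Cct8, the theta subunit, also separated the genotypes, at 0.22 ± 0.11 and 0.18 ± 0.10.

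The other 3 subunits overlapped between genotypes in their brightest probe sets. Cct5, the epsilon subunit, read 11.40, 11.73 and 11.63 in KO and 11.37, 11.52 and 11.39 in WT, and Cct4, the delta subunit, 12.09, 12.20 and 12.20 in KO and 11.99, 12.17 and 11.98 in WT. Of the 7 probe sets of Cct4, 2 did separate the genotypes, with KO higher. The brighter of these averaged 12.15 in KO and 11.96 in WT (0.19 ± 0.11). Tcp1, the alpha subunit, had the smallest difference, 0.06 ± 0.09 (95% interval -0.16 to 0.28). Whether subunits differ from each other in their response was not tested. The extreme arrays facing the other genotype were the same across the complex: KO 493 was the lowest KO array for 8 of 8 subunits and WT 504 the highest WT array for 8 of 8. All 8 subunits stayed above 0 in every alternative run, and centring each array on its median, which moved the median of all genes to 0.07, gave the complex a median of 0.31.

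**Figure D5:**
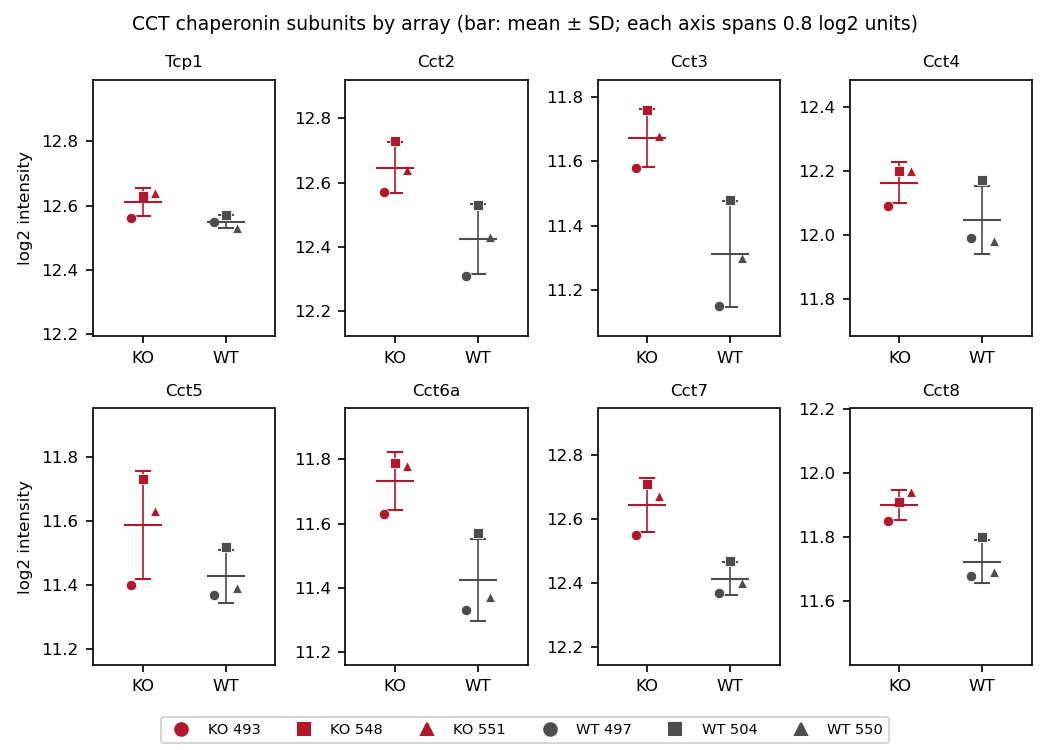
Log2 intensity on each array (points; KO left in red, WT right in grey, one symbol per array) for the 8 subunits of the CCT chaperonin; bars are the mean ± SD of 3 arrays and each vertical axis spans 0.8 log2 units. KO means lie above WT means in every panel, with no overlap for Cct2, Cct3, Cct6a, Cct7 and Cct8, KO 493 (red circle) is the lowest KO point and WT 504 (grey square) the highest WT point throughout.

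Hspd1, Hspe1 and Hspa9 of the mitochondria shared this feature, with KO 493 the lowest KO array and WT 504 the highest WT array in each. Over all 31 members, CCT subunits included, KO 493 was the lowest KO array for 18 and WT 504 the highest WT array for 20. Hspd1, HSP60, read 11.05, 11.39 and 11.29 in KO and 10.64, 11.25 and 10.85 in WT, a difference of 0.33 ± 0.18 (limma adjusted p = 0.361). Hspe1, its partner HSP10 on the other side of the promoter shown above, read 11.77, 11.88 and 11.92 in KO and 11.45, 11.86 and 11.58 in WT, a difference of 0.23 ± 0.13 (limma adjusted p = 0.393). In both genes WT 504 exceeded KO 493. Hspa9, mortalin, the HSP70 of the matrix, read 10.42, 10.85 and 10.69 in KO and 10.31, 10.90 and 10.59 in WT, a difference of 0.05 ± 0.19. Trap1, the mitochondrial HSP90, read 10.00, 9.87 and 10.09 in KO and 9.66, 9.68 and 9.93 in WT, a difference of 0.23 ± 0.12 (limma adjusted p = 0.348). None of the 4 separated the genotypes in its brightest probe set.

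Other genes of the same pathways were not called either. Of 132 measured genes in 8 further lists, limma called 0, the equal-variance test 0, and the trend fit 6 higher (Chordc1, Dnaja3, Dnajc2, Dnajc18, Hsbp1 and Sugt1) and 1 lower (Tubb4b); 15 higher and 1 lower had an unadjusted p under 0.05. Over all genes the trend fit called 2.37% higher and 2.04% lower, and 8.34% and 12.7% had an unadjusted p under 0.05. In 27 genes all KO values exceeded all WT values (12.5% of all genes) and in 9 the reverse held (16.2%), and the median difference was 0.10, against -0.04 over all genes. The 44 other HSP70 and HSP40 family genes had a median of 0.14, with 32 above 0. They include Dnajc18, a J-domain membrane protein, at 7.32, 7.90 and 7.79 in KO and 6.38, 6.85 and 6.55 in WT (1.08 ± 0.19, limma adjusted p = 0.0757, trend fit 0.0219). Dnajc2, a ribosome-associated J-domain protein that works with Hspa14, read 10.78, 10.89 and 11.01 in KO and 10.21, 10.37 and 10.38 in WT (0.57 ± 0.11, limma adjusted p = 0.0864, trend fit 0.011). Both exceeded WT on every KO array.

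Among 15 HSP90 co-chaperones the median was 0.13. Of these 6 lay wholly above WT (12.5% of all genes did) and 1 wholly below (16.2%). Sugt1, which links HSP90 to the kinetochore and to ubiquitin ligases, averaged 10.70 ± 0.10 in KO and 10.20 ± 0.10 in WT (0.50 ± 0.11, limma adjusted p = 0.104, trend fit 0.0197). Ppp5c, a phosphatase of HSP90 clients, averaged 8.89 ± 0.07 in KO and 8.42 ± 0.10 in WT (0.47 ± 0.11, limma adjusted p = 0.105). The list of 19 prefoldin and tubulin cofactor genes, which includes genes that hand clients to or from CCT, had a median of 0.16, with 15 above 0. It also holds the dim Cct6b, a CCT subunit gene and not a cofactor, at 4.41 in KO and 4.10 in WT. Tbcb, a tubulin cofactor, stood at 0.36 ± 0.10 and the prefoldin subunit Pfdn4 at 0.38 ± 0.12 (limma adjusted p = 0.133 and 0.165). The 12 actin and tubulin genes that are the main clients of CCT had a median of -0.12, with 10 below 0. Of these Tuba1a stood at -0.41 ± 0.19 and Tubb2b at -0.62 ± 0.31, both overlapping between genotypes.

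In the mitochondrial list of 14 genes the median was 0.15. Clpb, a disaggregase, stood at 0.46 ± 0.11 (limma adjusted p = 0.115) and Dnaja3, the J-domain partner of mortalin, at 0.29 ± 0.10 (limma adjusted p = 0.2). The 11 other heat shock factors and regulators had a median of 0.01. They include Hsbp1, which binds HSF1, at 10.73, 10.74 and 10.88 in KO and 10.36, 10.47 and 10.20 in WT (0.44 ± 0.12, limma adjusted p = 0.132, trend fit 0.0322), and Hikeshi, which imports HSP70 into the nucleus, at 0.26 ± 0.11. The 10 other small heat shock proteins had a median of -0.17, with Hspb11 at -0.51 ± 0.17 (limma adjusted p = 0.19) and Hspb7 at -0.25 ± 0.11. The 9 erythroid clients of HSP70 and HSP90 had a median of 0.01 and held 0 with an unadjusted p under 0.05; the smallest p values belonged to the growth factor receptor Kit (-0.51 ± 0.26) and the apoptosome scaffold Apaf1 (0.15 ± 0.13).

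Markers of other blood cells were present on all arrays, and most lists lay lower in KO. Below 0 lay 8 of 9 B cell, 11 of 11 neutrophil, 10 of 10 macrophage, 7 of 7 T and NK cell, 5 of 5 eosinophil, basophil and mast cell, 2 of 6 megakaryocyte and 8 of 9 erythroid markers. The summed linear intensity of 9 B cell markers was 5810 to 8090 in KO and 8640 to 14200 in WT, that of 11 neutrophil markers 44600 to 50700 in KO and 53400 to 58100 in WT, and that of 10 macrophage markers 8010 to 8780 in KO and 9920 to 12000 in WT. It was 913 to 1210 in KO and 1530 to 2410 in WT for 7 T and NK cell markers, and 2370 to 2720 in KO and 3360 to 5670 in WT for 5 eosinophil, basophil and mast cell markers. Among the 7 T and NK cell markers only Nkg7, the brightest, separated the genotypes by itself, and a sum without it was not taken. The 6 megakaryocyte markers overlapped, at 5560 to 6770 in KO and 5710 to 6150 in WT. The 9 measured erythroid markers summed to 49500 to 51000 in KO and 52500 to 54300 in WT. Limma called 0 genes of these lists, with an unadjusted p under 0.05 for 7 B cell, 4 neutrophil, 3 macrophage, 1 T and NK cell, 5 eosinophil, basophil and mast cell, 0 megakaryocyte and 0 erythroid markers, all lower in KO. Over all genes 12.7% were lower at that p, and 10020 of 18193 lay below 0. The brightest of each list stood at -0.59 ± 0.23 for Cd74 (B cell), -0.07 for S100a9 (neutrophil), -0.19 for C1qb (macrophage), -1.02 ± 0.28 for Nkg7 (T and NK cell), -0.86 ± 0.23 for Prg2 (eosinophil) and 0.04 for Ppbp (megakaryocyte). The trend fit called only Epx, eosinophil peroxidase, among them, and of all listed markers only Il2rb had a mean over the arrays below their mean 25th percentile. Their part in the differences of the chaperone genes was not tested.

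Immediate early genes, which handling of cells can raise, lay lower in KO without a call by limma. All 18 stood below 0, with a median of -0.43 against -0.04 over all genes, and 5 had an unadjusted p under 0.05 (12.7% of all genes were so and lower), while limma called 0 and the trend fit 1, Dusp1, a MAP kinase phosphatase. The list summed to 12700 to 14100 in KO and 16000 to 17200 in WT. KO 548, the highest array for Hspa1b and Bag3, had the highest sum in KO but lay below every WT array. WT 497 had the highest sum of all arrays and the lowest Bag3 reading, 6.50. Its readings for Hspa1b, 8.50, and Hspa1a, 5.51, lay within the range of the other arrays. The part of handling in the values of the stress-inducible genes was not tested.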

How the data were processed

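The deposited intensity values were probe-set summaries that the authors made with RMA, per the submitters' processing notes, which give no version; RMA as usually run includes quantile normalization, which can remove differences shared by most genes. Each value was 2 raised to an exponent of 2 decimals (tolerance 0.0051) and was taken back to log2 with no pseudocount or further normalization.  Of 45101 probe sets 64 controls were left out. GEO's platform annotation named 1 gene for 34945 of the others, several for 932 (not used for any gene) and none for 9160; gene identifiers were matched to RefSeq (GRCm38.p6) for 99.7% of genes. The brightest probe set over the 6 arrays stood for a gene.

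Limma 3.58.1 (R 4.3.3) compared KO and WT by moderated linear models without covariates, adjusting p by Benjamini-Hochberg over 45037 probe sets and a threshold of 0.05. SEs are moderated. The number of arrays limits precision. The members and lists were chosen with earlier results of these data known. All 31 measured members are described; of each other chaperone list the 2 genes with the smallest p are named, of each marker list the brightest, and genes that only the trend fit called were named after their values were seen. Procedures were tested on simulated data. Alternatives covered normalization, variance model, a filter on dim probe sets (mean at or above 5.7), the choice of probe set, a term for title number and each array left out.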

Additional observations from a re-analysis of the deposited data

How the results depend on the processing

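Limma called members under only some alternatives and 0 under every other. With an intensity trend and robust prior it called 3 of 31, against 4.42% of all genes. After the filter on dim probe sets it called 1 of 29 (Stip1), against 4.4% of genes past the filter. When any probe set of a gene could make the call it called 1 (Hsph1). The share of all genes under that rule was not counted, and 0.355% of all probe sets were called. The other chaperone genes called numbered 0, but 7 of 132 with the trend and 4 of 116 with the filter, beside the same 4.42% and 4.4%. Over all genes the 70 calls, 43 of them higher, became 93 with renewed quantile normalization (69 higher), 178 with arrays centred on their median (148 higher), 804 with the trend, 7 without moderation, 473 with the filter, 128 with a gene's probe sets averaged and 10 with a term for low against high title numbers, and 5 to 14 when 1 array was left out. The cause was not tested. The trend fit called Hspa4l (-0.44), Stip1 (0.47) and Cct7 (0.23), and the filter Stip1 (0.47). The call of the dimmer Hsph1 probe set was checked under alternatives chosen after seeing the data; it ended without moderation (0.87, adjusted p = 0.0529) and with the title number term (0.90, adjusted p = 0.0803).

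Uncalled differences near 0 changed sign as follows. With arrays centred on their median, Hspa1b stood at 0.09, Dnajb1 at 0.08, Dnajb4 at 0.04, Bag1 at 0.03 and Hsp90aa1 at 0.07; renewed quantile normalization put Hspa1b at 0.03 and the title number term put Hspa1a at -0.08. With probe sets averaged, Hspa1b stood at 0.14, Hsph1 at 0.37, Dnajb6 at -0.24, Hsp90aa1 at 0.02, Hspa9 at -0.10 and Hsf2 at 0.20. The Hspa9 average includes its dim probe set at -0.70. Leaving out 1 array gave ranges of -0.14 to 0.25 for Hspa1a, -0.36 to 0.18 for Hspa1b, -0.42 to 0.38 for Hsph1, -0.01 to 0.03 for Dnajb6, -0.08 to 0.02 for Hsp90aa1, -0.09 to 0.20 for Hspa9 and -0.41 to 0.18 for Hsf2. No paired analysis was possible because KO and WT arrays share no number in their titles.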

Other observations

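Readings in which a single bright array stands apart, as WT 550 does for the brighter Hsph1 probe set, were counted over the 5608 probe sets with a mean of at least 10. An array lay at least 1 log2 unit above every other array in 5 probe sets for WT 550, against 5 each for WT 497 and WT 504, 8 each for KO 493 and KO 551 and 2 for KO 548.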
